A study of Mus musculus with 6 samples.

Results

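A set of 10 genes that regulate or mark the stem cells of the hair follicle were followed in whole dorsal skin of mice treated with diphencyprone (DPCP). They were chosen by symbol and comprise the transcription factor genes Lhx2, Sox9, Tbx1, Barx2, Nfatc1, Foxc1 and Tcf7l1, the receptor gene Lgr5, the surface marker gene Cd34 and the matrix gene Npnt. All 10 were found among the 55487 genes of the deposited count table, and all 10 passed the filter on low counts. The skin was taken on day 2 and polyadenylated RNA was sequenced. One group of 3 libraries, labelled DPCP+Codrosome, received DPCP and clodrosome, which are liposomes filled with clodronate that kill the phagocytes that engulf them. The other group of 3 libraries, labelled DPCP+Encapsome, received DPCP and encapsome, liposomes without clodronate. Both groups thus carried the DPCP treatment, and no skin without DPCP is compared here. DPCP is a hapten that causes allergic contact dermatitis in sensitized skin. Strain, age and the route of the liposomes are not stated in the labels, nor whether each library came from its own animal, so the tests weigh differences against the spread among these libraries, which may be technical.

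Hair follicles pass through cycles of growth, regression and rest, and each new growth phase starts from stem cells in the bulge and from the hair germ just beneath it. In mice LHX2 and SOX9 maintain the identity of bulge cells, TBX1 sustains their self-renewal, and NFATC1 and FOXC1 hold them in quiescence. TCF7L1 represses targets of Wnt signalling in undifferentiated cells, LGR5 amplifies Wnt signalling as a receptor for R-spondins, and nephronectin, the product of Npnt, is laid down by bulge cells in the basement membrane where the arrector pili muscle attaches.

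The libraries held between 26649396 and 116965654 counts, and the deepest was clodrosome library A. The letters A, B and C follow the order of columns and pair no libraries across groups. Levels are given as CPM, counts divided by the library total after TMM scaling. The 8 macrophage genes listed as a check of the depletion were lower in 8 of 8 cases, with a summed level of 646 to 1602 CPM in clodrosome skin and 3659 to 4391 CPM in encapsome skin. Keratinocyte genes were abundant in every library, with Krt14 between 11203 and 16534 CPM. The share of counts in rRNA genes took nuclear and mitochondrial rRNA genes together. It was lower in clodrosome A, clodrosome C and encapsome A, at 0.334% to 0.481%. In clodrosome B, encapsome B and encapsome C it was 0.788% to 0.845%, and the labels name no batch.

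In the set, 5 of the 10 genes (50%) were higher in clodrosome skin at an adjusted p under 0.05 and 1 (10%) was lower, in a fit with edgeR's quasi-likelihood test over all 17988 genes tested. The background in that fit was 9.41% of genes higher and 13.0% lower, 22.4% in either direction. The 5 that rose were Barx2, Lhx2, Tbx1, Sox9 and Npnt, and the one that fell was Tcf7l1. The median log2 fold change over the 10 genes was 0.44, beside 0.01 over all genes tested. Groups did not overlap in CPM for 7 of the 10 genes (70%), against 40.2% of all genes tested. Of these 6 were higher and 1 lower in clodrosome skin, where the background was 19.5% higher and 20.7% lower. The 10 genes and the lists below were chosen with earlier results of these data known. Their shares therefore describe these genes and cannot be read as those of a set chosen blind. In whole skin, fewer cells of a type and less RNA per cell cannot be told apart, nor can more cells and more RNA per cell. CPM is also a share of the scaled library total, so a gene can rise in CPM where RNA of other cells falls. The part of this in the 5 rises was not tested.

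**Figure D1:**
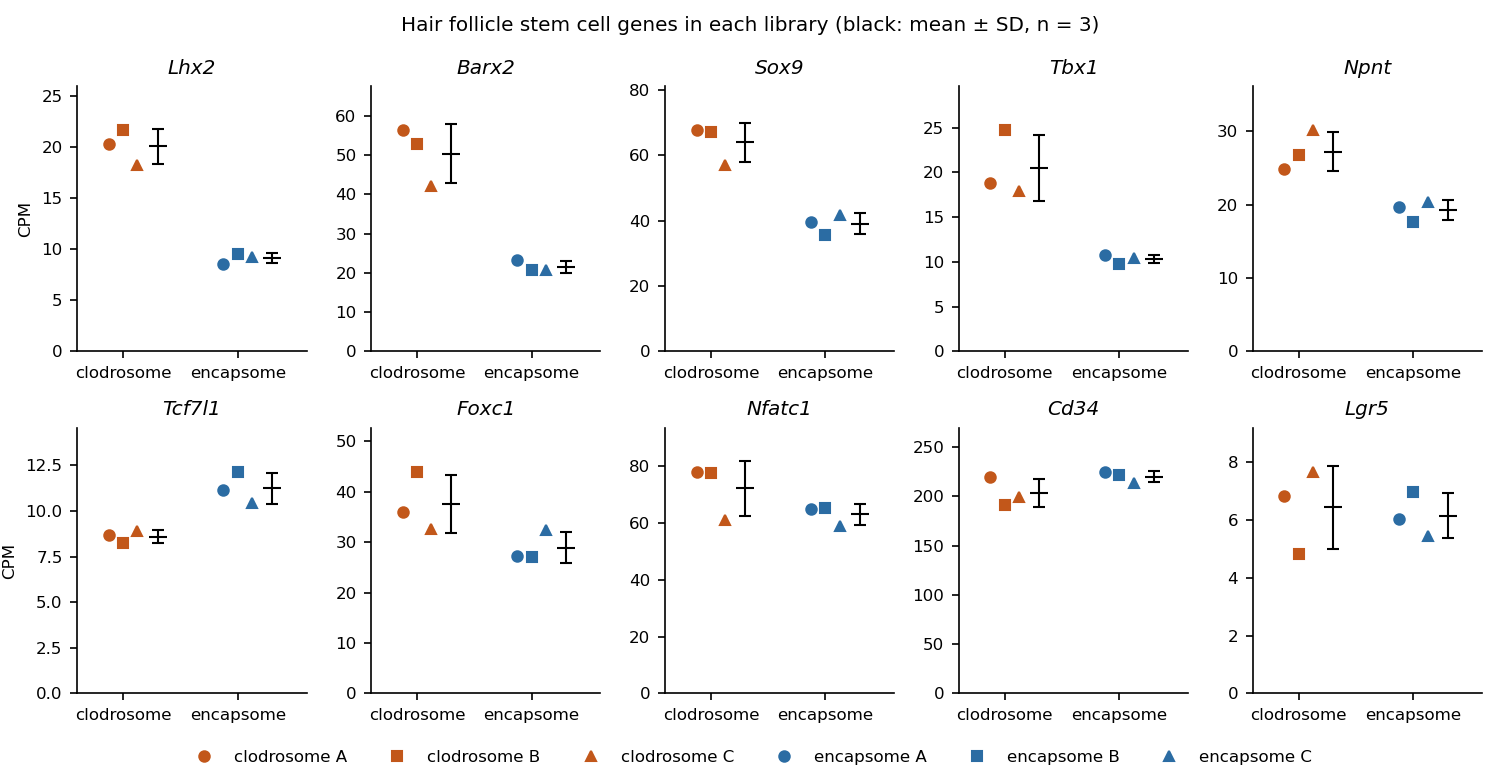
Each panel shows one gene, with CPM on the vertical axis and 1 point per library, clodrosome at the left and encapsome at the right, and the mean with SD (n = 3) in black. Lhx2, Barx2, Sox9, Tbx1 and Npnt lie higher in every clodrosome library than in every encapsome library. Foxc1 does too, but only just, with clodrosome C at 32.6 CPM and encapsome C at 32.5 CPM. Tcf7l1 lies lower, and Lgr5, Cd34 and Nfatc1 overlap.

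Lhx2, a LIM homeobox factor, lies on chromosome 2 at 38339281 to 38369733 (GRCm38, as are all positions here). It stood at 20.2, 21.6 and 18.2 CPM in clodrosome A, B and C, and at 8.55, 9.55 and 9.21 CPM in encapsome A, B and C. Every clodrosome library was above every encapsome library, and the 3 encapsome values lay close together. The means were 20.03 ± 1.69 CPM with clodrosome and 9.11 ± 0.505 CPM with encapsome (SD, n = 3 each). That is a 2.2-fold difference. The log2 fold change was 1.14 with an SE of 0.107, and its adjusted p in edgeR was 0.000186, which ranked 159 among all genes tested by its p-value.

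Barx2, a homeobox factor of epithelium and muscle (chromosome 9, 31846044 to 31913462), had the greatest fold change of the 10 genes. Its levels were 56.4, 52.9 and 42.1 CPM in clodrosome A, B and C, against 23.4, 20.7 and 20.7 CPM in encapsome A, B and C. The groups were far apart, although clodrosome C was the lowest of its group. On the log2 scale the difference was 1.23 ± 0.116 (SE), or 2.34-fold, with an edgeR adjusted p of 0.000187. Sox9, an SRY-box factor of the outer root sheath and bulge (chromosome 11, 112782224 to 112787760), stood at 67.6, 67.1 and 56.9 CPM in clodrosome A, B and C, and at 39.6, 35.7 and 41.8 CPM in encapsome A, B and C. It differed 1.64-fold, or by 0.71 ± 0.0944 (SE) in log2 units, at an edgeR adjusted p of 0.000923. As for Barx2, clodrosome C was the lowest of the clodrosome libraries, and it still stood above all encapsome libraries.

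Tbx1, a T-box factor (chromosome 16, 18580979 to 18590671), reached 18.8, 24.7 and 17.97 CPM in clodrosome A, B and C, and 10.8, 9.80 and 10.4 CPM in encapsome A, B and C. Clodrosome B stood highest, and the coefficient of variation was 17.9% with clodrosome but 4.80% with encapsome. The difference was 1.98-fold, or 0.98 ± 0.135 (SE) in log2 units, at an edgeR adjusted p of 0.00109. Without clodrosome B it was 0.84 in log2 units (edgeR adjusted p = 0.000957). Npnt (chromosome 3, 132881745 to 132950291) had 24.8, 26.7 and 30.1 CPM in clodrosome A, B and C, and 19.7, 17.7 and 20.3 CPM in encapsome A, B and C. The groups did not overlap, and the nearest libraries were clodrosome A and encapsome C. Its difference of 1.42-fold (0.50 ± 0.102 in log2 units, SE; adjusted p = 0.0077 in edgeR) was the smallest of the 5 rises. These 5 calls held without each library in turn, with adjusted p-values up to 0.00167 for Lhx2, 0.00177 for Barx2, 0.00625 for Sox9, 0.00853 for Tbx1 and 0.0417 for Npnt.

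BARX2 and TBX1 are also made in muscle, and some muscle progenitor genes moved with them. Of 6 such genes 3 were higher and 0 lower, and their summed level was 16.2 to 21.3 CPM in clodrosome skin and 4.95 to 9.82 CPM in encapsome skin. Myog, a factor of differentiating myoblasts, rose by 1.70 log2 units (edgeR adjusted p = 0.00169), and Myod1 and Cdh15 rose by 1.52 and 1.22. Without clodrosome A the 3 higher calls became 1. Myf5 was at 0 in encapsome B, and no other gene of the list was at 0 in a library. The part of muscle RNA in the differences of Barx2 and Tbx1 was not tested.

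Promoter windows were looked up for the 10 genes, and some of those of Lhx2, Tbx1 and Npnt, which were called higher, are printed. RefSeq (GRCm38.p6) gave windows for 6 of the 10 genes, namely Cd34, Foxc1, Lhx2, Npnt, Tbx1 and Tcf7l1, with 9 windows in all. Each is the stretch of 250 bases before an annotated start, and the 4 windows of called genes that touch no annotated exon are printed 5′ to 3′ on the gene's strand. Capitals mark GGGCGG, the GC box bound by SP-family factors, on either strand.
Lhx2, chr2:38339031-38339280, plus strand: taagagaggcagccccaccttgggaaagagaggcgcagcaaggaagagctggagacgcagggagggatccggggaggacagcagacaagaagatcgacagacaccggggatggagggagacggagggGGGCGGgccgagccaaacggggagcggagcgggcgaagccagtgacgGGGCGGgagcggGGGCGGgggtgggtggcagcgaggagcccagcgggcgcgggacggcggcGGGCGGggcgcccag
Npnt, chr3:132950292-132950541, minus strand: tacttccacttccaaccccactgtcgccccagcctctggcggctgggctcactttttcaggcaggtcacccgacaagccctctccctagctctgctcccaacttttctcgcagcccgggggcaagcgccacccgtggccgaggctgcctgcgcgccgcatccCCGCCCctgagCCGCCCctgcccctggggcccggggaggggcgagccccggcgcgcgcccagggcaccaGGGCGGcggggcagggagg
Tbx1, upstream start, chr16:18590672-18590921, minus strand: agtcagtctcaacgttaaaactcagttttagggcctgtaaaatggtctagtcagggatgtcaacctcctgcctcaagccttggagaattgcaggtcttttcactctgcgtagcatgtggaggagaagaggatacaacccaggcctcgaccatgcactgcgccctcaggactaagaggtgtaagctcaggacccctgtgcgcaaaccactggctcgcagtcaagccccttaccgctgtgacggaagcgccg
Tbx1, downstream start, chr16:18588900-18589149, minus strand: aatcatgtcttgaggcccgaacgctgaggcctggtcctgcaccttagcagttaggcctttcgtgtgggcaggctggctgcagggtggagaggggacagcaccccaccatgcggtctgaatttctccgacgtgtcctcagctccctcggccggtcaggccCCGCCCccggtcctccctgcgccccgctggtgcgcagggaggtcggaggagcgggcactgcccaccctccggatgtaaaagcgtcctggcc
The Lhx2 window held 4 GC boxes, the Npnt window 3, the downstream Tbx1 window 1 and the upstream Tbx1 window 0, and no other motif searched was in these 4 windows. Among the windows not printed, the other Lhx2 window, the other Npnt window and the Cd34 window held 0 GC boxes. The window of Tcf7l1, called lower, held 2 and that of Foxc1, not called, held 1. GC boxes were thus not confined to genes called higher, nor present in all their windows. Over the 9 windows 5 had at least 1 GC box, against 32.7% of the 32851 windows of all genes. Base composition went with this, since 8 of the 9 windows had more G and C than the median window (52.4%), between 54.4% and 74.0%, and only the Cd34 window was below it at 46.4%. TAATTA (a homeodomain core, in 4.84% of all windows), AACAAT (a SOX core, 9.42%), TCAAAG (a TCF/LEF core, 13.8%), TATAAA (the TATA box, 12.4%) and TGANTCA (an AP-1 site, 6.75%) were in 0 of the 9 windows on either strand. CCAAT was in 1, that of Foxc1, against 33.8% of all windows.

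Tcf7l1, a high-mobility-group factor that pairs with beta-catenin (chromosome 6, 72626378 to 72789254), was the one gene called lower. Its levels were 8.67, 8.22 and 8.90 CPM in clodrosome A, B and C, and 11.2, 12.1 and 10.4 CPM in encapsome A, B and C. The groups did not overlap and each was narrow. The difference in log2 units was -0.39 ± 0.112 (SE), at an edgeR adjusted p of 0.036, that is 1.31-fold higher in encapsome skin. Leaving out any single library took the call away (adjusted p between 0.0596 and 0.131 in edgeR), as did having no filter on low counts (0.0822), while the log2 fold change stayed between -0.44 and -0.33.

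The genes of quiescence, Foxc1 and Nfatc1, did not pass the test. Foxc1, a forkhead factor (chromosome 13, 31806633 to 31812476), stood at 36.1, 43.9 and 32.6 CPM in clodrosome A, B and C, and at 27.3, 27.0 and 32.5 CPM in encapsome A, B and C. The groups did not overlap, but clodrosome C and encapsome C were almost equal. Its log2 fold change was 0.37 (95% interval 0.10 to 0.65; edgeR adjusted p = 0.0547). Foxc1 was called higher by DESeq2 (adjusted p = 0.0277), with no filter on low counts (edgeR, 0.00247), with counts halved (edgeR, 0.0474), with the rRNA split as a term (edgeR, 0.014) and without clodrosome C (edgeR, 0.0384). Nfatc1 (chromosome 18, 80606205 to 80713071) had 77.9, 77.8 and 61.1 CPM in clodrosome A, B and C, and 65.1, 65.3 and 58.9 CPM in encapsome A, B and C. Clodrosome C lay among the encapsome libraries, and the log2 fold change was 0.20 (95% interval -0.04 to 0.43; edgeR adjusted p = 0.208). Nfatc1 is also made in endothelium and in osteoclasts. Of 10 blood endothelial genes 6 were higher and 0 lower in clodrosome skin (3 higher without clodrosome C or without encapsome A), with a summed level of 650 to 719 CPM with clodrosome and 477 to 548 CPM with encapsome, while the macrophage genes fell as given above. The part of those cells in the level of Nfatc1 was not tested.

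The surface markers Lgr5 and Cd34 were not called either. Lgr5 (chromosome 10, 115450311 to 115587780) had 6.82, 4.83 and 7.66 CPM in clodrosome A, B and C, and 6.04, 6.98 and 5.44 CPM in encapsome A, B and C. The highest and the lowest value were both in clodrosome libraries. Counts ran from 143 in encapsome C to 815 in clodrosome A, and the log2 fold change of 0.07 had a 95% interval from -0.35 to 0.49 (edgeR adjusted p = 0.827), so changes within that interval could not be told from 0.

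Cd34, a sialomucin of bulge cells in mice (chromosome 1, 194938819 to 194961279), had 219, 191 and 199 CPM in clodrosome A, B and C, and 224, 222 and 213 CPM in encapsome A, B and C. Clodrosome A lay within the encapsome range, and the log2 fold change was -0.11 (95% interval -0.29 to 0.06; edgeR adjusted p = 0.341). CD34 is also carried by capillary endothelium, dermal fibroblasts and mast cell progenitors, and the calls in these lists lay in different directions. Of 10 fibroblast genes 8 were lower and 0 higher, with a summed level of 2871 to 4982 CPM in clodrosome skin and 8884 to 10350 CPM in encapsome skin. Of 7 mast cell genes 5 were lower and 1 higher, with 339 to 418 CPM in clodrosome skin and 436 to 541 CPM in encapsome skin. Of the endothelial genes 6 of 10 were higher, as given above, and no gene of these 3 lists was at 0 in any library. Col1a1, Col1a2, Lum and Thy1, the fibroblast genes with the smallest p, changed by -1.90, -1.61, -1.76 and -0.98 on the log2 scale, with edgeR adjusted p-values of 0.000162 to 0.000716. The endothelial genes Pecam1, Egfl7, Kdr and Emcn were higher by 0.59, 0.47, 0.46 and 0.62 log2 units (adjusted p between 0.00187 and 0.0197 in edgeR), and the call of Emcn was lost without clodrosome C, encapsome A or encapsome C. How much each of these cell types gave to the Cd34 level was not tested.

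**Figure D2:**
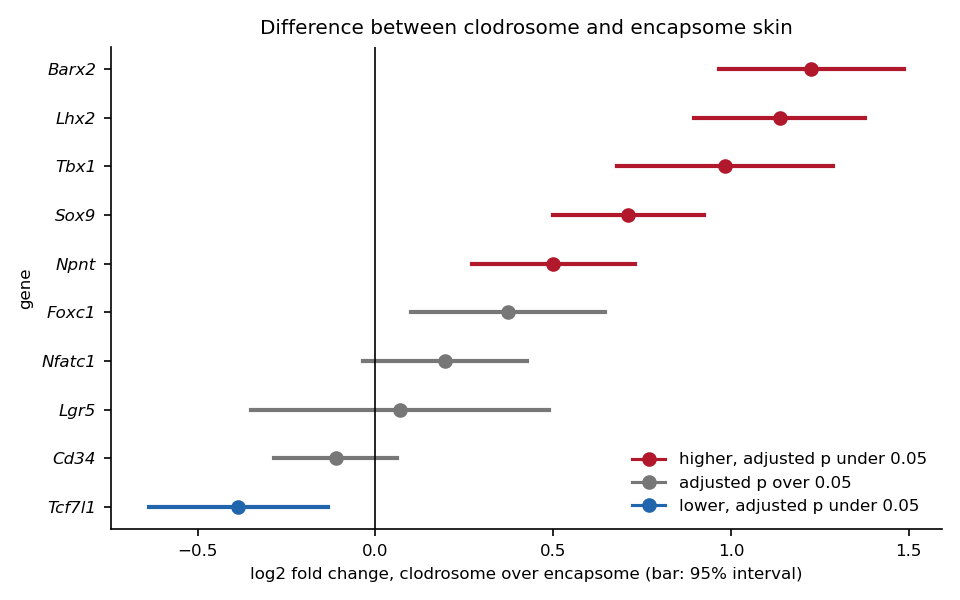
Points give the log2 fold change of clodrosome over encapsome for each of the 10 genes on the horizontal axis, with bars for the 95% interval (edgeR, n = 3 libraries each), coloured by call. Barx2 (1.23), Lhx2 (1.14), Tbx1 (0.98), Sox9 (0.71) and Npnt (0.50) are called higher, Tcf7l1 (-0.39) lower, and the interval of Foxc1 lies above 0 although its adjusted p is 0.0547.

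Per length, the order of the genes changed between the groups. In TPM, which scales counts by gene length, Cd34 stood first in both groups, at 75.3 ± 9.56 TPM in clodrosome skin and 78.7 ± 3.29 TPM in encapsome skin (SD, n = 3 each, here and for the other genes). Barx2 came next, at 68.97 ± 11.2 TPM with clodrosome and 28.6 ± 2.55 TPM with encapsome. Sox9 followed at 41.5 ± 4.25 TPM with clodrosome and 24.6 ± 1.94 TPM with encapsome. The genes of quiescence came after these factors in both groups. Nfatc1 had 26.0 ± 3.48 TPM with clodrosome and 22.0 ± 1.55 TPM with encapsome. Foxc1 had 17.2 ± 1.76 TPM with clodrosome and 12.9 ± 1.21 TPM with encapsome. Below Foxc1 the order differed between the groups. Tbx1 was at 15.6 ± 1.83 TPM with clodrosome, above Npnt, and at 7.66 ± 0.459 TPM with encapsome, below Npnt. Npnt was at 14.6 ± 1.66 TPM with clodrosome and 9.97 ± 0.727 TPM with encapsome. Lhx2 was at 12.3 ± 0.804 TPM with clodrosome and 5.40 ± 0.234 TPM with encapsome. It changed places with Tcf7l1, which was at 5.91 ± 0.567 TPM with clodrosome and 7.47 ± 0.596 TPM with encapsome. Lgr5 was last in both groups, at 1.70 ± 0.46 TPM with clodrosome and 1.56 ± 0.201 TPM with encapsome. With clodrosome the ranges of Cd34 and Barx2 overlapped, as did those of Foxc1 and Tbx1 and those of Tbx1 and Npnt. With encapsome the overlapping neighbours were Sox9 and Nfatc1 and also Tbx1 and Tcf7l1. Lhx2 stood above Tcf7l1 in clodrosome skin (11.4 to 13.01 against 5.25 to 6.24 TPM) and below it in encapsome skin (5.17 to 5.64 against 6.83 to 8.01 TPM), with no overlap in either group.

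Several genes of basal keratinocytes, the layer in which follicle stem cells also lie, were higher in clodrosome skin too, and the 10 genes were set against them. Of 10 basal keratinocyte genes 6 were higher and 0 lower, with a median log2 fold change of 0.40. Trp63, the factor of epidermal progenitors, Lama3 and Lamb3, laminin chains of the basement membrane, and Krt5 rose by 0.53, 0.50, 0.51 and 0.66 (edgeR adjusted p from 0.000839 to 0.00588). The summed level of the 10 genes of this list was 24620 to 24880 CPM in clodrosome skin and 16810 to 20810 CPM in encapsome skin, a 1.33-fold difference. Most of this sum came from Krt14 (mean 15680 CPM with clodrosome, 12440 CPM with encapsome) and Krt5 (6055 and 3839 CPM). Divided by this sum, Barx2, Lhx2, Tbx1 and Sox9 remained higher in every clodrosome library than in every encapsome library, by 0.81, 0.73, 0.57 and 0.30 on the log2 scale. The gap was narrow for Sox9, whose nearest libraries, clodrosome C and encapsome C, had log2 ratios of -8.773 and -8.794, and -8.5848 and -8.5849 when Krt5 and Krt14 alone were the divisor. Of all genes tested, 2.14% had groups apart in that direction on this scale. Npnt overlapped, at -9.84 ± 0.135 with clodrosome and -9.93 ± 0.11 with encapsome (log2 ratio, SD, n = 3 each), a difference of 0.09 on the log2 scale. Tcf7l1 and Cd34 were lower in every clodrosome library on this scale, by differences of -0.79 and -0.52, but 54.8% of all genes tested were too. The differences of Lgr5, Nfatc1 and Foxc1, positive in CPM, were -0.36, -0.22 and -0.04 on this scale, and their groups overlapped. That of Foxc1 took a positive sign without clodrosome C (0.0566), without encapsome C (0.0473) and against the mean log2 CPM of the list (0.0167, chosen after seeing the data). With 3 libraries against 3, the exact two-sided permutation test of such a ratio cannot give a p below 0.1.

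**Figure D3:**
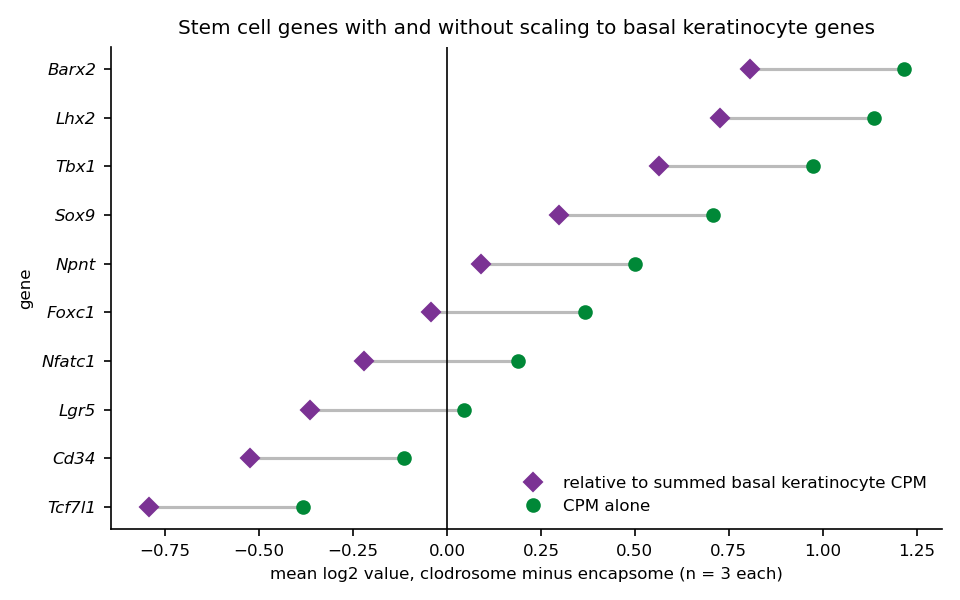
Circles give the difference in mean log2 CPM and diamonds the same after division by the summed CPM of 10 basal keratinocyte genes, clodrosome minus encapsome, for the 10 genes (n = 3 libraries each). All points move left by the same amount, 0.41, which leaves Barx2 (0.81), Lhx2 (0.73), Tbx1 (0.57) and Sox9 (0.30) above 0, Npnt (0.09) and Foxc1 (-0.04) near it and the other 4 genes below it.

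Among other genes of follicle stem and progenitor cells, more were higher than lower. Of 17 tested 7 were higher and 2 lower, with a median log2 fold change of 0.23. Plet1, a marker of the upper follicle, stood at 137, 153 and 141 CPM in clodrosome A, B and C, and at 80.5, 77.6 and 83.9 CPM in encapsome A, B and C (difference 0.84 ± 0.0733 in log2 units, SE; edgeR adjusted p = 0.000135). Sfrp1, a secreted Wnt inhibitor, rose by 0.83, Vdr, the vitamin D receptor needed for follicle cycling, by 0.57 and Hopx, a bulge marker, by 0.52 (edgeR adjusted p = 0.000716, 0.00459 and 0.00676). Krt15, a bulge keratin named after its values were seen, had 229, 617 and 319 CPM in clodrosome A, B and C, and 234, 178 and 190 CPM in encapsome A, B and C. Clodrosome A lay within the encapsome range, and the call rested near the threshold (log2 fold change 0.95; edgeR adjusted p = 0.0495). The 7 higher calls became 4 without encapsome B or without encapsome C. The 2 lower calls, Id2 and Fgf18, became 1 without clodrosome B or C and 0 without clodrosome A, encapsome B or encapsome C.

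Genes of the hair germ and of activated progenitors were higher in 3 of 10 cases and lower in 1, with a median of 0.43. Sox4, Axin2, a target of Wnt signalling, and Cdh3, the P-cadherin of the hair germ, rose by 0.52, 0.41 and 0.44 (edgeR adjusted p = 0.0141, 0.0173 and 0.0367), and Runx3 changed by -0.78 (edgeR adjusted p = 0.00607). The 3 higher calls became 1 without clodrosome A or encapsome B and 0 without encapsome C. Shh, the signal of the growing hair germ, was not tested, and it was at most 0.159 CPM in any library (named after its values were seen).

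The list of hair matrix and shaft genes, which are made in growing hairs, gave 1 call. Of 20 listed 9 were tested, 1 was higher and 0 were lower, with a median of 0.14. The higher gene was Hoxc13, a factor of the hair matrix, at 0.65 (edgeR adjusted p = 0.018), a call lost without clodrosome A, clodrosome C, encapsome A or encapsome C. Padi3, Dlx3 and Gata3 had log2 fold changes of -1.12, -0.37 and -0.30 and did not pass (edgeR adjusted p = 0.0775, 0.0893 and 0.0923). The 10 other listed genes found in the table failed the filter on low counts, and none of them exceeded the 0.36 CPM of Krt71 in clodrosome A. Among the keratins of the outer root sheath and companion layer, 4 of 8 were higher and 0 lower, with a median of 0.36. Krt17, Krt5, Krt6a and Krt16 rose by 0.65, 0.66, 0.40 and 0.38 (edgeR adjusted p from 0.0032 to 0.0239), and the 4 calls became 2 without clodrosome C, encapsome B or encapsome C. Krt14, Krt75, Krt79 and Krt6b of that list were not called (edgeR adjusted p = 0.0693, 0.184, 0.271 and 0.95). Krt5 and Krt14 are in both the basal and the outer root sheath list. Whether the keratins that rose came from the follicle or from the epidermis between follicles was not tested.

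Within the libraries of lower rRNA share (clodrosome A and C against encapsome A) and those of higher share (clodrosome B against encapsome B and C), most of the 10 genes kept the sign of their difference. In log2 CPM Lhx2 differed by 1.17 and 1.204, Barx2 by 1.06 and 1.35, Tbx1 by 0.77 and 1.29, Sox9 by 0.65 and 0.80, Npnt by 0.48 and 0.50 and Tcf7l1 by -0.35 and -0.45, the lower share first. Foxc1 differed by 0.33 and 0.57, Nfatc1 by 0.08 and 0.33 and Cd34 by -0.10 and -0.18. Lgr5 was the exception, with 0.26 in the libraries of lower share and -0.35 in those of higher share. With 1 library on one side of each of these differences, no test was made.

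**Figure D4:**
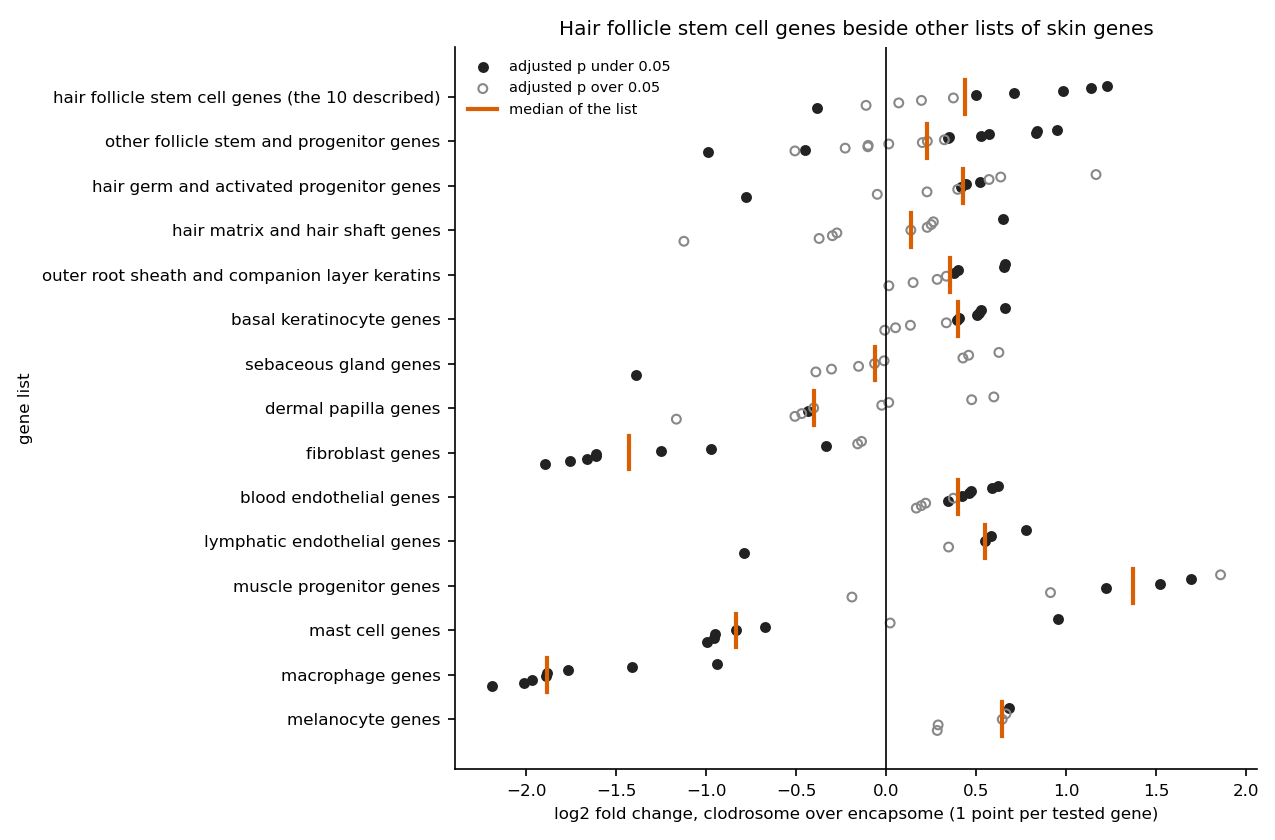
Each row is a list of genes and each point a tested gene, with its log2 fold change of clodrosome over encapsome on the horizontal axis, filled where the edgeR adjusted p is under 0.05, and an orange bar at the list's median. The 10 stem cell genes (median 0.44) lie beside basal keratinocyte genes (0.40), hair germ genes (0.43) and blood endothelial genes (0.40). Medians of lymphatic endothelial (0.55), melanocyte (0.64) and muscle progenitor genes (1.37) lie further right. Those of fibroblast (-1.43), macrophage (-1.89), mast cell (-0.84), dermal papilla (-0.40) and sebaceous gland genes (-0.065) lie to the left of 0.

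Outside the 10 genes, those whose log2 CPM ran most closely with Lhx2 over the 6 libraries were Gcat, Ppdpf and Srsf6, with Pearson's r of 0.998, 0.998 and 0.996. These values describe 6 libraries in 2 groups, and the libraries are shared by all genes compared. The differences between groups were smaller for these genes than for Lhx2, with log2 fold changes of 0.32, 0.44 and 0.19, and only Ppdpf was called (edgeR adjusted p = 0.00209). The genes most like Cd34 were Adgrd1, an adhesion-type receptor, Xpnpep2, an aminopeptidase, and Zfat, a zinc finger factor, with r of 0.997, 0.992 and 0.991. As with Cd34 itself, clodrosome B was the lowest library for all 3, and none of them was called (edgeR adjusted p = 0.0874, 0.276 and 0.146).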

How the data were processed

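Polyadenylated RNA of whole mouse skin was measured in 6 libraries, 3 per group. Per the labels' protocols, libraries were stranded, made from mRNA, and read from both ends. Per the submitters' processing notes, Trimmomatic 0.36, HISAT2 2.2.1, StringTie 2.2.1, featureCounts 1.6.2, DESeq2 1.34.0 and the mm10 build were used. The deposited table holds unnormalized counts of reads per gene, which per the file headers came from featureCounts 1.6.2 with Ensembl 102 on GRCm38, and the recorded command sets no option for strand or read pairs. Each read end is then counted by itself, and the share of even values among counts of 1 to 20 was 63.6% to 69.7% per library. An exon of another gene covered 4.56% of the exonic bases of Tcf7l1, 2.03% of those of Cd34 and 0% for the other 8 genes.

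Columns were matched to groups by name, since column names and sample titles number the libraries differently, and 0 further columns of sample values were present. Symbols were found for 99.4% of identifiers. Within groups the chi-square per gene between libraries was 9.93 to 53.0, so no 2 libraries of the same group looked like 1 library deposited under 2 names. Libraries of different groups were not compared in this way. Genes were tested with edgeR 4.0.16 in R 4.3.3 (quasi-likelihood F test through glmQLFit and glmQLFTest, with a group term alone) after TMM scaling (factors 0.982 to 1.02) and filterByExpr (minimum count 10, minimum total 15), with Benjamini-Hochberg adjustment over 17988 genes and a threshold of 0.05. Standard errors were derived from the log2 fold change and its F statistic. The procedure was tested on simulated counts in which 200 genes were changed. Far more genes, 4035, were called in these data, so the simulation could not test the scaling under so wide a change. Alternatives were DESeq2 1.42.0, RLE factors, no filter, halved counts, the split by rRNA share as a term and leaving out each library. TPM was computed from the counts and the table's gene lengths. For each list up to 4 genes with the smallest p are named, and the 3 genes most like Lhx2 and Cd34 were taken from tested genes of at least 1 CPM that have a full gene name and not a clone name (log2 CPM, prior count 2). The genes and lists were chosen with earlier results of these data known.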

Additional observations from a re-analysis of the deposited data

How the results depend on the processing

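Across the 11 alternatives (DESeq2, RLE factors, no filter, halved counts, the rRNA split as a term and each library left out), Lhx2, Barx2, Sox9, Tbx1 and Npnt stayed higher and past the threshold. The 10 genes gave 5 to 7 calls, against 6 in the fit reported. The 1 lower call, Tcf7l1, became 0 with no filter and 0 without each library in turn. The log2 fold change of Lgr5 turned to -0.0425 with the rRNA split as a term and ran from -0.0635 to 0.23 when each library was left out, turning negative without clodrosome C (-0.0635) and without encapsome C (-0.01). Over all genes the calls were 4035 in the fit reported, ran from 2477 (without encapsome B) to 4396 (without clodrosome B) when each library was left out, and reached 4729 with no filter. The higher calls were 1692, ran from 821 to 1964 when each library was left out, and reached 2199 with no filter. Set against the basal keratinocyte genes, the differences moved by less than the spread between libraries when Krt5 and Krt14 alone, the mean log2 CPM of the list (chosen after seeing the data) or 5 of the 6 libraries were used. Krt5 and Krt14 give most of the summed level, so using them alone changes the divisor little and is a weak check. No paired analysis was possible because the labels state no pairing of libraries across groups. The table's columns also do not carry the replicate numbers of the sample titles. The lowest count of the 10 genes was 143, for Lgr5, and with counts halved its log2 fold change was 0.0805. The cause of these changes was not tested.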

Other observations

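Several lists of other skin cells were described beside the follicle genes. Of 9 sebaceous gland genes 0 were higher and 1 lower, with a median log2 fold change of -0.07. The lower gene was Soat1, which esterifies cholesterol in gland cells and in macrophages, at -1.39 (edgeR adjusted p = 0.000123). Its fellow list members Awat1, Elovl3 and Far2 had 0.63, 0.43 and -0.39 and did not pass with edgeR (adjusted p = 0.0528, 0.0982 and 0.101). DESeq2 called 2 genes of that list higher and 2 lower, 3 were lower without clodrosome B, and 1 was higher without clodrosome C or encapsome A. Of 9 tested dermal papilla genes 0 were higher and 1, Enpp2, was lower at -0.44 (edgeR adjusted p = 0.0131), which became 2 lower without clodrosome A and 0 without encapsome B. Notum, Wif1 and Rspo3 of that list, with -1.17, -0.51 and 0.47, did not pass (edgeR adjusted p = 0.139, 0.257 and 0.275). The defining dermal papilla genes Corin and Sox2 (named after their values were seen) were below 0.75 CPM in every library.

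Of 5 melanocyte genes 1 was higher and 0 lower, namely Tyrp1 at 0.68 (edgeR adjusted p = 0.0164), a call lost without clodrosome C, encapsome A or encapsome C, while 2 were higher without clodrosome B. Pmel, Mlana and Dct had 0.67, 0.64 and 0.29 and did not pass (edgeR adjusted p = 0.071, 0.141 and 0.199). Of 5 tested lymphatic endothelial genes 3 were higher and 1 lower. Mmrn1, Reln and Flt4 rose by 0.78, 0.58 and 0.55, and Lyve1, which some macrophages also make, changed by -0.79 (edgeR adjusted p from 0.00178 to 0.0359). The call of Flt4 was lost without any 1 of the encapsome libraries. Among mast cell genes Mcpt4, Cpa3 and Cma1 changed by -0.997, -0.952 and -0.835, and Hdc, which makes histamine in mast cells and neutrophils, rose by 0.96 (edgeR adjusted p from 0.000755 to 0.0045). Cd68, Adgre1, C1qb and Mrc1, the macrophage genes with the smallest p, changed by -2.01, -1.41, -1.89 and -1.97 (edgeR adjusted p from 0.00034 to 0.00166).

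Ccl21a, a lymphatic chemokine gene that failed the filter on low counts and was picked out after its values were seen, stood at 16.5 CPM in clodrosome C and 18.1 CPM in encapsome B and below 0.08 CPM in the other 4 libraries. It has near-identical copies in the mouse genome, and its count is uncertain for that reason.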
